A study of Secale cereale x Triticum turgidum subsp. durum with 39 samples.

Results

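The transcripts described here were high in the ovary of triticale from the tetrad stage to the tricellular stage of pollen development. A probe set, the group of short probes that reads 1 transcript on the array, was kept when its mean log2 signal in ovary was at least 1 above the higher of the anther and stigma means at each of the 4 stages. This rule kept 65 of 61160 eligible probe sets. The difference between the ovary mean and the higher of the other 2 means is called the ovary excess below. The 65 were chosen by this excess, so it is given as a description with no test.

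The cereal ovary encloses a single ovule, in which the embryo sac with the egg cell forms, and after fertilisation it becomes the grain. The feathery stigma above it catches pollen and lets the pollen tube grow towards the ovule. The anther makes the pollen through microspore, bicellular and tricellular steps, and these steps served in the study as a clock for all the floral organs.

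All plants were triticale, x Triticosecale Wittmack cv. Alta, a hybrid of rye and durum wheat (Secale cereale x Triticum turgidum subsp. durum), grown untreated in a climate chamber. Ovaries, stigmas and anthers were taken when the anther held tetrads (TET), uninucleate microspores (UNM), pollen of 2 cells (BCP, bicellular) or of 3 cells (TCP, tricellular), and mature pollen grains (MPG) were added, which gave 13 groups of 3 biological replicates on 39 Affymetrix Wheat Genome arrays. The labels give no age of the plants and do not say how many plants a sample pooled. RNA came from a PicoPure kit at TET (50 to 100 ng, amplified in 2 cycles), from RNeasy and InviTrap kits at UNM and BCP (1000 ng), and from CsCl extraction at TCP and MPG (5000 ng). Stage and kit therefore cannot be told apart between TET and UNM or between BCP and TCP, whereas UNM and BCP, and the organs within a stage, had the same kits. The array was designed on wheat sequence, so a probe set may read rye and wheat copies of a gene together.

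Arrays of a group correlated at 0.978 to 0.996 over all probe sets, and 39 of 39 arrays were closest to their own group. No annotated probe set with a described ovary role was in the tables used here, so the ovary label could not be checked against a defining marker. A sucrose synthase control transcript, high in ovary in earlier results of these data, is also on the array. Its values are not given here. The array's actin control transcript (3′ probe set) averaged 4.38 to 4.57 in the ovary groups, against 13.96 in anthers at TCP and 14.07 in mature pollen. It averaged 4.47 to 5.19 in the stigma groups and 4.01, 4.67 and 12.52 in anther at TET, UNM and BCP. It therefore does not set ovary apart from stigma or young anther. The third stigma array at TCP stood apart for the ovary transcripts: it was the highest of its group for 46 of the 65, whereas it was the highest for 33.1% of all eligible probe sets. The median of the 65 was 5.43 on that array, against 4.81 on each of the other 2. For 11 of the 65 (0.28% of eligible probe sets) it lay at least 1 above its group's median. Without it the median of the 65 in stigma at TCP was 4.85, against 4.96 with it, and the median excess at TCP was 2.28, against 2.24. The stigma mean of a single transcript at TCP changed by -0.72 to 0.15 without it, and calls at stigma TCP are given both ways. The first ovary array at UNM also stood apart, as the highest of its group for 3 of the 65, whereas it was the highest for 30.9% of eligible probe sets. The part of either array in the results was not tested.

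**Figure D1:**
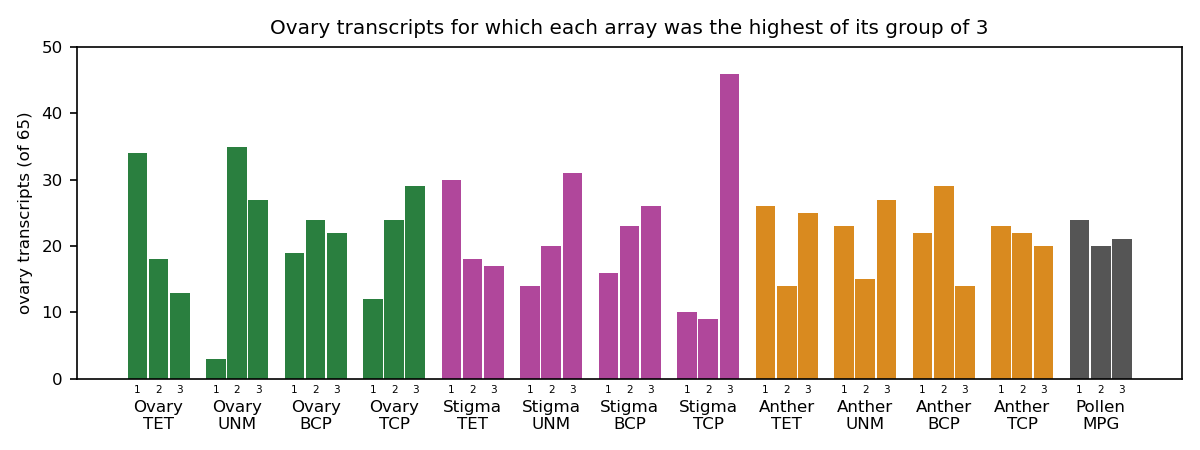
Number of the 65 ovary transcripts (vertical axis) for which each array gave the highest value of its group of 3; bars are arrays 1 to 3 of each organ and stage. The third stigma array at TCP was the highest for 46 transcripts, more than any other array.

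The tables pair 5 of the 65 probe sets with a gene symbol and 60 with none. The 5 are LOC780638, LOC543114, LOC100037571, LOC542849 and LOC780650, which carry no description of function, so no role is given to any of them. Symbols of this kind were on 7.69% of the 65 and on 2.05% of eligible probe sets. The 65 came from 56 transcript clusters, the part of a probe set's name before the second point. Only 7 clusters held more than 1 of them, and these 7 held 16 of the probe sets: Ta.7436 and Ta.9382 with 3 each, and Ta.1671, Ta.8782, Ta.20413, Ta.8141 and Ta.14293 with 2 each. Probe sets of 1 cluster share sequence and are not independent. Names beginning TaAffx made up 15.4% of the 65 and 48.5% of eligible probe sets. The suffix _x_at, which marks probes that also match other transcripts, was on 10 of the 65 (15.4%, against 11.1% of eligible probe sets).

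The ovary excess was smallest at TET. Its median over the 65 was 1.55 at TET, 2.02 at UNM, 2.47 at BCP and 2.24 at TCP. The lowest of the 4 excesses fell at TET for 32 transcripts, at UNM for 13, at BCP for 6 and at TCP for 14. Among eligible probe sets, 283 had an excess of at least 1 at TET, 543 at UNM, 1188 at BCP and 3397 at TCP. Kit and RNA amount changed between TET and UNM and between BCP and TCP, so they cannot be told apart from stage here. The TET stage thus limited the list: of 201 probe sets that were high at 3 of the 4 stages, 141 missed TET, 37 missed TCP, 17 missed UNM and 6 missed BCP. The smallest of the 4 excesses ranged over the 65 from 1.00 to 3.91 with a median of 1.28. It was at least 2 for 9 transcripts and under 1.5 for 42. Just inside the rule's limit were Ta.6504.1.S1_at (1.01) and Ta.1345.3.S1_x_at (1.00), and just outside it TaAffx.66085.1.A1_at (0.99) and TaAffx.5381.1.S1_at (0.99).

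All 3 ovary arrays lay above all 6 stigma and anther arrays for 64, 65, 65 and 65 of the 65 at TET, UNM, BCP and TCP, where the same held for 4.82%, 5.48%, 9.27% and 14.1% of eligible probe sets; the rule used these values and nothing is read from the count. The rule was also applied to 2 replicates of each group and read on the remaining one, which it had not used. With replicates 1, 2 and 3 left out, the sets chosen shared 56, 58 and 60 probe sets with the 65. The 65 themselves were chosen on all 3 replicates, so the counts below are no test of them. With replicate 1 left out it chose 67 probe sets, of which 45 had an excess of at least 1 at all 4 stages in replicate 1, against 0.113% of eligible probe sets. With replicate 2 left out, 48 of 65 met the limit in replicate 2 (0.128% of eligible probe sets). With replicate 3 left out, 46 of 73 met it in replicate 3 (0.116% of eligible probe sets). An excess above 0 at all 4 stages was seen in the replicate left out for 65 of 67, 65 of 65 and 67 of 73. The same held for 3.4%, 3.59% and 4.41% of eligible probe sets. In replicates 1, 2 and 3, the smallest excess of a chosen probe set went down to -2.997, 0.538 and -4.815. The shares of eligible probe sets include those without signal, and a share among probe sets with signal was not computed here. Nothing is therefore read from the contrast with these shares.

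**Figure D2:**
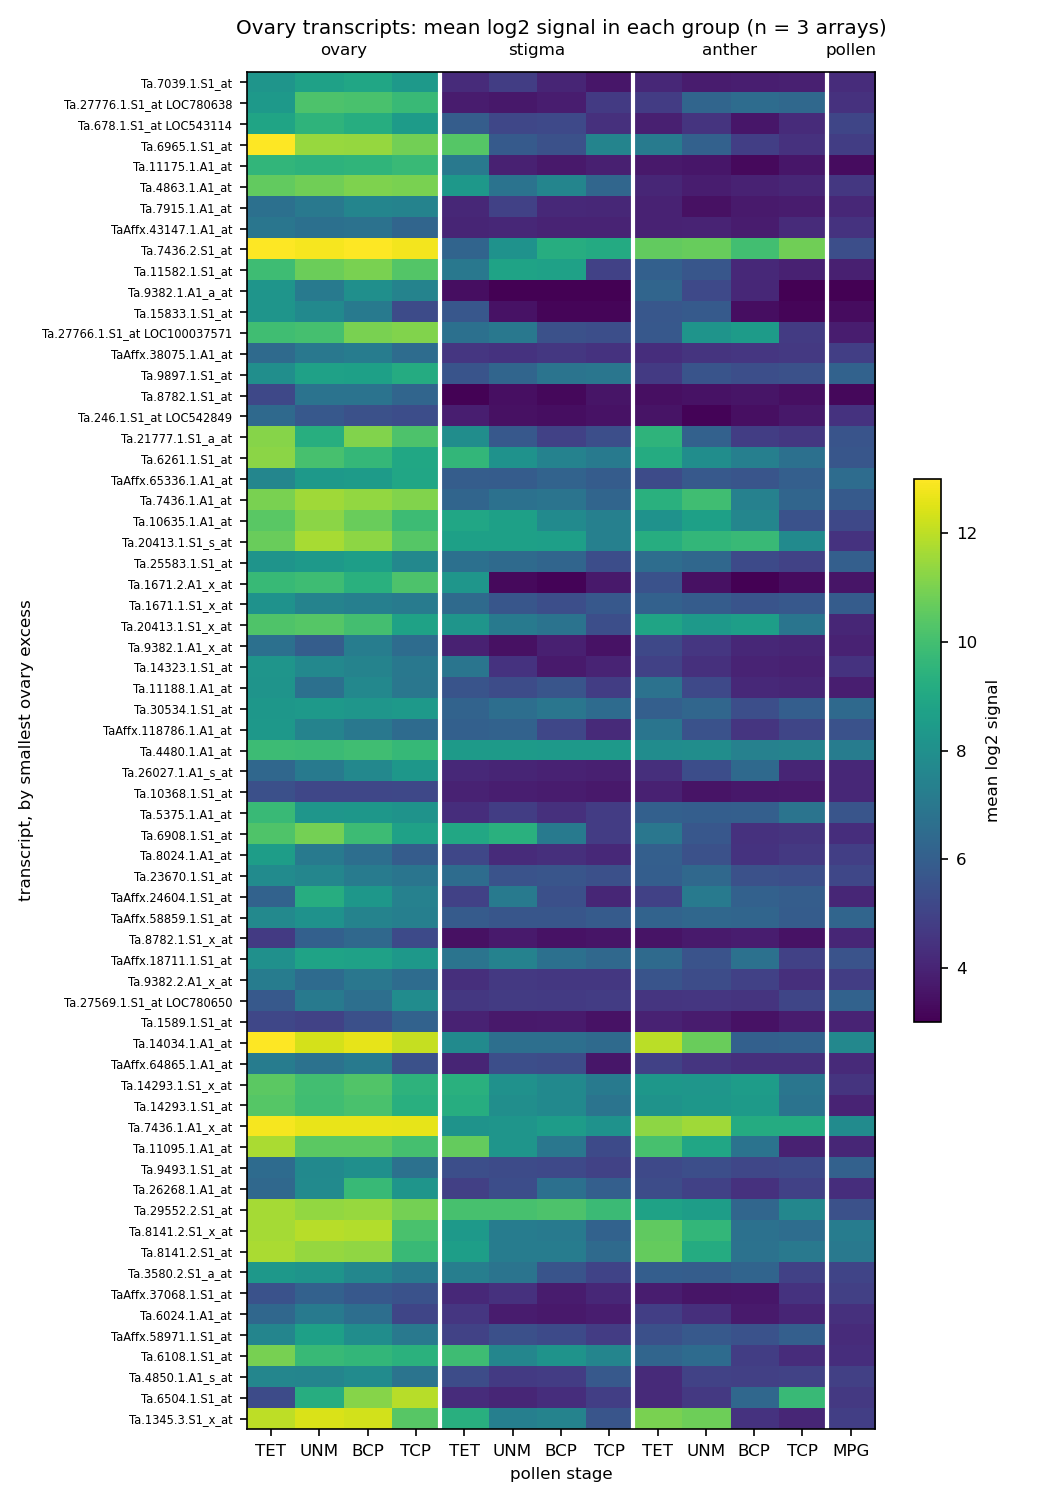
Mean log2 signal (colour, n = 3 arrays) of the 65 ovary transcripts (rows, largest smallest excess at the top) in ovary, stigma, anther and mature pollen, with stages from left to right. The ovary columns are brighter than the stigma and anther columns in every row, as the rule requires; stigma and anther levels range from dim to above 10.

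In absolute signal, the median of the 65 was 8.23, 8.66, 8.61 and 8.33 in ovary at TET, UNM, BCP and TCP. It was 6.06, 5.68, 5.45 and 4.96 in stigma and 5.98, 5.72, 4.92 and 4.92 in anther at the same stages. The median of all eligible probe sets lay between 4.85 and 5.08 in the 13 groups, so the typical ovary transcript came down close to the level of a typical probe set in stigma and anther at TCP. A mean under 6 is called dim below. The ovary itself was dim for 7, 4, 4 and 8 of the 65 at the 4 stages, and 52 were at 6 or above in all 4 ovary groups. Ta.10368.1.S1_at, singled out after its values were seen, was the only one dim in all 4: its ovary means were 5.42, 5.12, 5.13 and 5.16. In all 8 stigma and anther groups, 19 of the 65 were dim and 12 were at 6 or above; the other 34 were dim in some. In such bulk organ samples, fewer cells of a type and less RNA per cell cannot be told apart.

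The clearest ovary signal belonged to Ta.7039.1.S1_at, with excesses of 4.01, 3.91, 4.89 and 4.48 at the 4 stages; the smallest is 15.1-fold. Its ovary arrays read 7.98, 8.60 and 8.13 at TET, 8.41, 8.78 and 8.98 at UNM, 9.08, 8.85 and 8.81 at BCP, and 8.28, 8.66 and 8.15 at TCP. Its stigma means were 4.22, 4.81, 4.02 and 3.60, its anther means 4.12, 3.77, 3.84 and 3.88, and its mature pollen mean 4.25 ± 0.49 (SD, n = 3). Every array outside the ovary was under 5, and the ovary arrays did not come near them. Ta.678.1.S1_at (LOC543114) had the same shape at ovary means of 8.84, 9.50, 9.21 and 8.51, with stigma at 5.97, 5.13, 5.20 and 4.37 and anther at 3.90, 4.52, 3.60 and 4.23. Its excess was 2.87 at TET and above 4 afterwards, and stigma was the higher of the other organs at all 4 stages.

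Ta.27776.1.S1_at (LOC780638) combined a strong ovary signal with some signal in anther. Its ovary arrays read 8.35, 8.67 and 8.21 at TET and 10.12, 10.39 and 10.14 at UNM, and its means were 10.13 ± 0.08 at BCP and 9.78 ± 0.09 at TCP (SD, n = 3). Its stigma means were 3.76, 3.65, 3.78 and 4.70, and its anther means 4.79, 6.27, 6.54 and 6.36. The stigma mean at TCP rests on arrays at 4.08, 4.03 and 6.0, the last of which is the array that stood apart. Ovary was above anther by 3.42 to 3.94 at the 4 stages.

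Other transcripts with a large excess were dim outside the ovary. Ta.7915.1.A1_at averaged 6.70, 7.04, 7.54 and 7.46 in ovary and stayed under 5 in every stigma and anther group mean. TaAffx.43147.1.A1_at averaged 6.93, 6.69, 6.77 and 6.27 in ovary, with stigma means of 3.98 to 4.10 and anther means of 3.76 to 4.22. Ta.246.1.S1_at (LOC542849) was fainter: its ovary means were 6.41, 5.74, 5.47 and 5.35, and its 3 ovary arrays at UNM spread over 5.71, 6.42 and 5.08. Its stigma means were 3.84, 3.46, 3.35 and 3.49 and its anther means 3.53, 3.10, 3.40 and 3.64.

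Some transcripts had stigma signal at TET that was lower at UNM and BCP. Ta.11175.1.A1_at was flat in ovary, at 9.58, 9.47, 9.53 and 9.76. Its stigma arrays read 7.10, 7.09 and 6.96 at TET, and the stigma means at UNM, BCP and TCP were 3.93, 3.69 and 3.88. Its anther means were 3.68, 3.62, 3.25 and 3.62, so the excess was 2.53 at TET and 5.55, 5.84 and 5.88 later. Ta.6965.1.S1_at had ovary means of 13.14, 11.45, 11.41 and 10.86, with stigma at 10.36, 5.83, 5.49 and 7.51 and anther at 7.16, 6.11, 4.85 and 4.41. Over the 65, stigma means were at least 2 higher at TET than at UNM for 8 transcripts (0.417% of eligible probe sets, 0.795% of those with signal), anther means for 2 (1.38% and 2.63%) and ovary means for 0 (0.353% and 0.674%). They were at least 2 lower at TET for 1 transcript in stigma (1.8% and 3.45%), 2 in anther (3.2% and 6.07%) and 2 in ovary (1.92% and 3.65%). This step crosses the change of kit.

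For Ta.4863.1.A1_at and Ta.11582.1.S1_at, also with a large excess, the stigma signal lasted beyond TET. Ta.4863.1.A1_at averaged 10.61, 10.82, 11.06 and 10.99 in ovary and 8.33, 6.81, 7.56 and 6.28 in stigma, while its anther means stayed between 3.78 and 4.06. Ta.11582.1.S1_at averaged 9.88, 10.77, 10.98 and 10.33 in ovary and 6.99, 8.81, 8.71 and 4.92 in stigma. In anther it was at 6.08, 5.67, 4.15 and 3.93. Its stigma signal was thus closest to the ovary's at UNM and BCP, with excesses of 1.96 and 2.27, and dim at TCP.

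The 5 brightest in ovary were Ta.7436.2.S1_at (mean over the 4 stages 12.93), Ta.7436.1.A1_x_at (12.72), Ta.14034.1.A1_at (12.55), Ta.1345.3.S1_x_at (11.78) and Ta.6965.1.S1_at (11.72). The first 4 were also bright in young anthers. Ta.7436.2.S1_at averaged 12.99, 12.87, 13.01 and 12.84 in ovary, 6.23, 8.11, 9.22 and 9.10 in stigma and 10.59, 10.69, 9.96 and 10.82 in anther. Ta.7436.1.A1_x_at, of the same cluster, averaged 12.87, 12.69, 12.69 and 12.63 in ovary, 8.12, 8.20, 8.52 and 8.10 in stigma and 11.30, 11.57, 9.16 and 9.14 in anther. Over the stages, the ovary means of the first spanned 0.17 and those of the second 0.24.

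**Figure D3:**
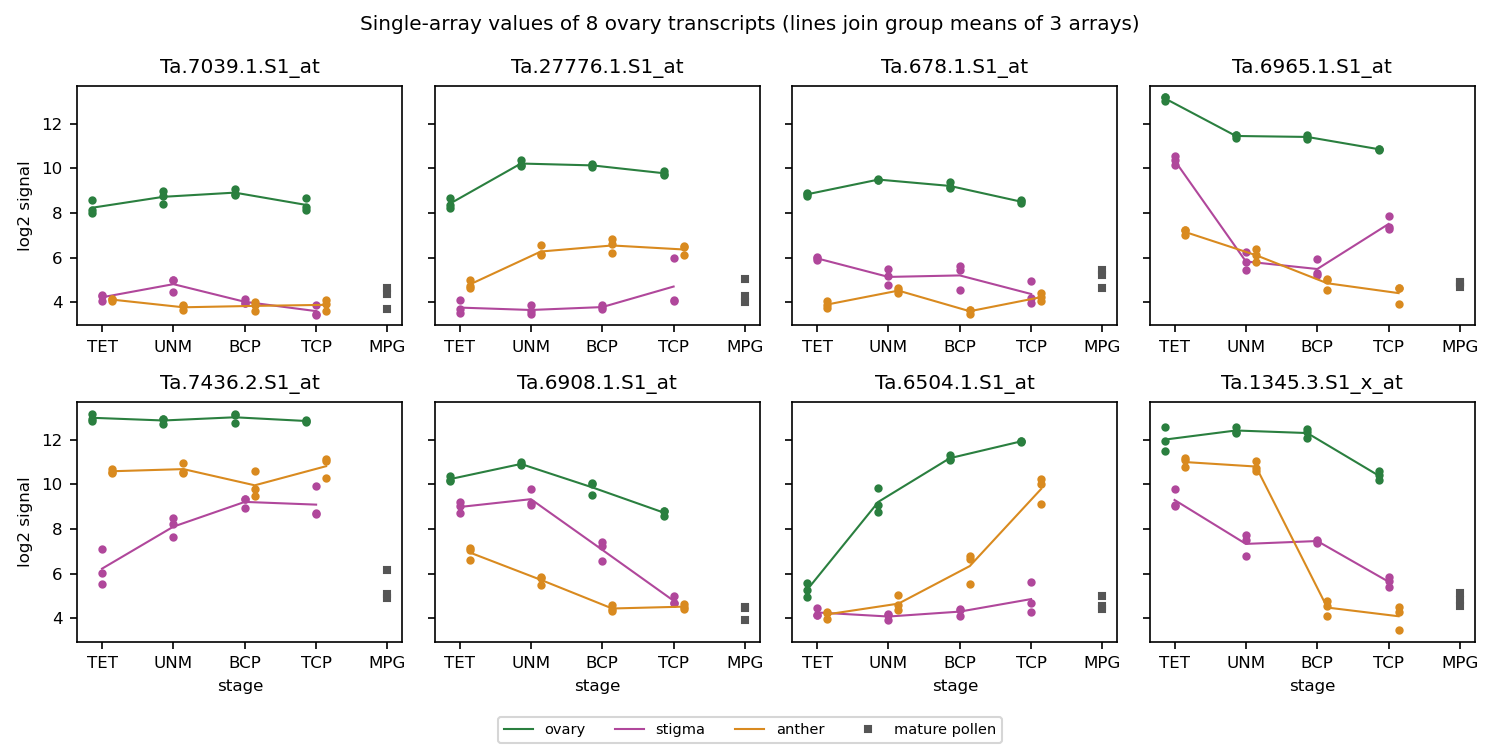
Log2 signal (vertical axis) of 8 ovary transcripts at each stage (horizontal axis); points are single arrays and lines join the means of 3 arrays for ovary, stigma and anther, with mature pollen as squares. Ta.7039.1.S1_at is dim outside the ovary, Ta.1345.3.S1_x_at drops in anther at BCP, and Ta.6504.1.S1_at climbs in ovary and later in anther.

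Whether the transcripts held a steady level within the ovary was not set by the rule, which asked only for an excess at each stage. The stage means of a transcript spanned a median of 1.22 in ovary, 1.11 in stigma and 1.32 in anther. The ovary span was under 1 for 23 of the 65 and 2 or more for 11. The flattest was Ta.30534.1.S1_at, singled out after its values were seen, with ovary means of 8.31, 8.36, 8.24 and 8.36. Steps were tested with limma over all 61204 probe sets, and a transcript was called where the groups differed by 1 or more in log2 and the p-value, adjusted by the method of Benjamini and Hochberg, was under 0.05. The groups of each step also entered the rule, and probe sets with signal are called more often. Beside each count is therefore the share of all probe sets called, and the share of the 31620 with a group mean of at least 6, as 64 of the 65 had.

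Between UNM and BCP, the step with the same kits, 60 of the 65 were not called in ovary. The mean of the poly-A labelling controls still differed at this step. It went from 5.13 to 7.11 in ovary, from 5.46 to 7.02 in stigma and from 6.12 to 6.93 in anther. The part of this in the results was not tested. BCP was called higher for 4 of the 65 (background 0.833% of all probe sets, 1.5% of those with signal) and lower for 1 (0.569% and 0.99%). The median change was 0.00, against -0.01 over all probe sets, with 33 above 0 and 32 below. Ta.6504.1.S1_at read 11.32, 11.08 and 11.12 at BCP, against 9.09, 9.83 and 8.75 at UNM, a rise of 1.95 ± 0.30 (SE; limma adjusted p = 5.62e-05). Ta.26268.1.A1_at read 9.77, 9.74 and 9.69 at BCP, against 7.23, 8.26 and 7.89 at UNM, a rise of 1.94 ± 0.28 (SE; limma adjusted p = 2.92e-05). The arrays of the 2 stages did not overlap for either transcript. Ta.6908.1.S1_at was the 1 that fell: it read 9.53, 10 and 10.08 at BCP and 10.86, 10.98 and 10.91 at UNM, a change of -1.05 ± 0.19 (SE; limma adjusted p = 7.65e-04). That call was lost without ovary BCP replicate 1 (-0.88), and without ovary BCP replicate 3 the lower count was 2. With hybridisation-control scaling 7 were higher and 0 lower by limma; 25 of the 65 had an unadjusted p under 0.05 at this step, as did 17.1% of all probe sets and 23.7% of those with signal.

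Between TET and UNM, UNM was called higher for 9 of the 65 (background 7.18%, 13% of those with signal) and lower for 9 (3.77% and 6.75%), with a median change of 0.05 against -0.07 over all probe sets. Ta.6504.1.S1_at rose the most, with arrays at 9.09, 9.83 and 8.75 at UNM against 5.60, 4.97 and 5.25 at TET, a rise of 3.95 ± 0.30 (SE; limma adjusted p = 1.19e-12). TaAffx.24604.1.S1_at read 9.13, 9.44 and 9.09 at UNM against 5.83, 6.10 and 6.55 at TET, a rise of 3.06 ± 0.27 (SE). Ta.6504.1.S1_at was dim in ovary at TET and TaAffx.24604.1.S1_at, with a mean of 6.16, just above that level. In the other direction, Ta.21777.1.S1_a_at changed by -1.89 ± 0.35, with arrays at 9.16, 10.11 and 8.56 at UNM and 11.58, 11.32 and 10.61 at TET. Ta.6965.1.S1_at changed by -1.69 ± 0.20 (SE). Scaling each array to its hybridisation controls gave 4 higher and 16 lower, and scaling to bright probe sets gave 7 and 10.

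Between BCP and TCP, falls outnumbered rises. TCP was called lower for 12 of the 65 (background 3.19%, 5.42% of those with signal) and higher for 1 (4.56% and 7.74%). The median change was -0.51, against -0.03 over all probe sets, and 54 of the 65 were below 0. Ta.1345.3.S1_x_at read 10.61, 10.41 and 10.18 at TCP against 12.35, 12.48 and 12.08 at BCP, a change of -1.91 ± 0.25 (SE; limma adjusted p = 3.88e-07). Ta.15833.1.S1_at read 5.06, 5.31 and 5.48 at TCP against 7.28, 6.96 and 7.02 at BCP, a change of -1.81 ± 0.18 (SE). The 1 that rose was Ta.27569.1.S1_at (LOC780650), at 7.67, 8.11 and 7.85 at TCP and 6.58, 6.73 and 6.62 at BCP, a rise of 1.23 ± 0.16 (SE; limma adjusted p = 2.04e-07). With hybridisation-control scaling, which moved the median of all probe sets by 0.27 at this step, 3 were higher and 7 lower. The poly-A labelling controls averaged 8.61 in ovary at TCP and 7.11 at BCP. They also differed between UNM and BCP, where the kits were the same. The part of these differences in the result was not tested.

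Over the 3 ovary steps, 37 of the 65 were called at none and 28 at 1 or more, where 16.5% of all probe sets and 28.8% of those with signal were called at 1 or more. Ta.26268.1.A1_at was the only one of the 65 called at all 3 (background 0.284% and 0.544%), with ovary means of 6.40, 7.79, 9.73 and 8.22. Ta.6504.1.S1_at had the widest course of the named transcripts: its ovary means were 5.27, 9.22, 11.18 and 11.93, a span of 6.66. It entered the list with an excess of 1.01 at TET, and its later excesses were 4.56, 4.83 and 2.13.

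**Figure D4:**
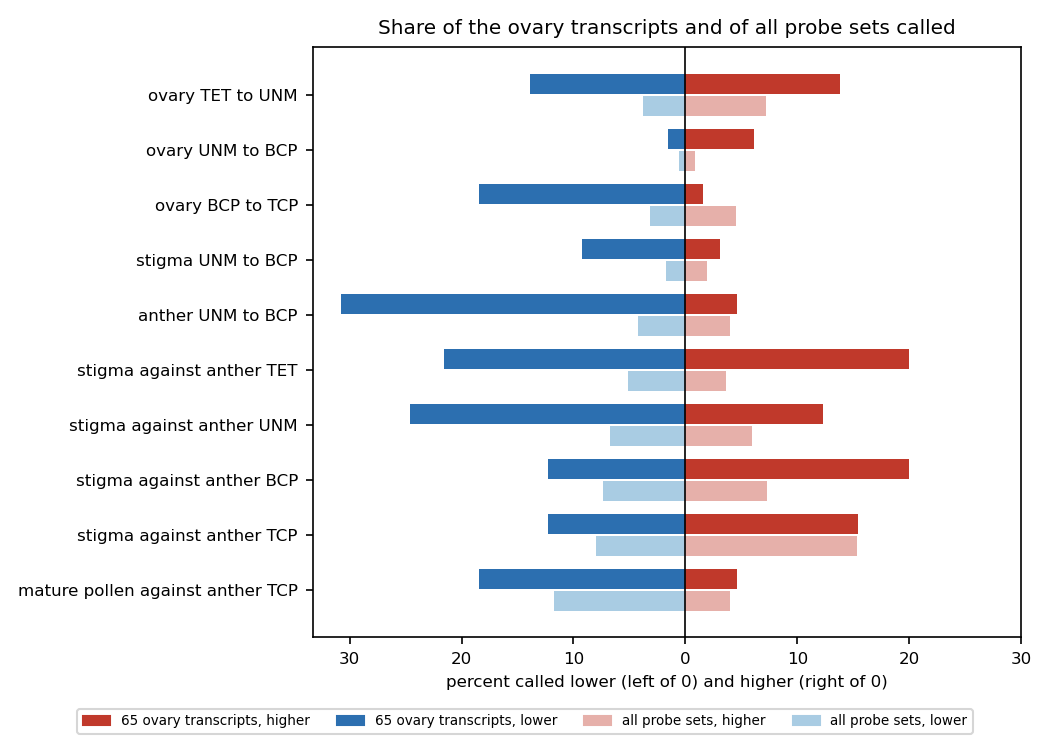
Percent of the 65 ovary transcripts (dark bars) and of all 61204 probe sets (pale bars) called lower (left of 0) and higher (right of 0) in 10 comparisons; the later stage, stigma or mature pollen is read against the earlier stage or anther. In anther from UNM to BCP, 20 of the 65 were lower, 30.8% against 4.27% of all probe sets. The share was 7.79% among probe sets with a group mean of at least 6, which are not drawn apart.

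Many of these transcripts fell in anther between UNM and BCP, when the uninucleate microspores become bicellular pollen. BCP was called lower for 20 of the 65 (background 4.27%, 7.79% of those with signal) and higher for 3 (4.02% and 7.36%). The median change was -0.39, against -0.02 over all probe sets. The 20 include 2 probe sets each of clusters Ta.7436 and Ta.8141. Ta.1345.3.S1_x_at read 4.55, 4.78 and 4.12 in anther at BCP against 10.60, 10.74 and 11.07 at UNM, a change of -6.32 ± 0.25 (SE; limma adjusted p = 1.56e-20). Ta.14034.1.A1_at read 5.99, 6.12 and 6.06 at BCP against 10.44, 10.53 and 11.22 at UNM, a change of -4.68 ± 0.32 (SE; limma adjusted p = 5.54e-14). In anther both were dim or nearly so at BCP and bright at UNM, while in ovary they averaged 12.30 and 12.62 at BCP and 12.42 and 12.34 at UNM. With hybridisation-control scaling, which moved the median of all probe sets by 0.55 here, 10 were lower and 3 higher.

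The 3 that rose in anther at this step were Ta.6504.1.S1_at, TaAffx.18711.1.S1_at and Ta.26027.1.A1_s_at. Ta.6504.1.S1_at read 6.81, 6.67 and 5.54 in anther at BCP against 4.58, 4.36 and 5.03 at UNM, a rise of 1.68 ± 0.30 (SE; limma adjusted p = 3.27e-05), and its anther mean at TCP was 9.80 ± 0.60 (SD, n = 3). TaAffx.18711.1.S1_at rose by 1.19 ± 0.18 (SE), with arrays at 7.05, 6.57 and 6.62 at BCP and 5.25, 5.77 and 5.64 at UNM. Ta.26027.1.A1_s_at, named to complete the count, rose by 1.04.

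In stigma the same step was called for fewer. BCP was called lower for 6 of the 65 (background 1.72%, 3.13% of those with signal) and higher for 2 (1.89% and 3.6%), with a median change of -0.10 against -0.01 over all probe sets. Ta.6908.1.S1_at read 7.22, 6.57 and 7.41 in stigma at BCP against 9.78, 9.18 and 9.07 at UNM, a change of -2.27 ± 0.19 (SE; limma adjusted p = 2.05e-10). TaAffx.24604.1.S1_at read 5.37, 5.18 and 5.79 at BCP against 7.16, 6.88 and 7.19 at UNM, a change of -1.63 ± 0.27 (SE). These and Ta.11095.1.A1_at were the 3 called lower in both stigma and anther (background 0.307% of all probe sets, 0.576% of those with signal). The 2 that rose were Ta.26268.1.A1_at (1.32 ± 0.28) and Ta.7436.2.S1_at (1.11 ± 0.33, limma adjusted p = 0.0221). The call of Ta.7436.2.S1_at was lost without stigma UNM replicate 2 (0.87), BCP replicate 2 (1.04) or BCP replicate 3 (1.05), which left 1 rise. The difference between the stigma step and the anther step was itself called for 21 of the 65, 15 with the higher step in stigma and 6 with the lower (background 5.73% and 5.17%, together 10.9%). These are shares of all probe sets, and the share of those with signal was not computed for this difference. The 15 include all the ovary transcripts of clusters Ta.7436 and Ta.8141, which are not independent within a cluster. With hybridisation-control scaling 4 were higher and 3 lower in stigma.

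Which of the other organs came second to the ovary varied between transcripts. Stigma was the higher of the other organs at all 4 stages for 14 of the 65, anther for 14, and the organ changed with stage for 37. At TET, stigma was called above anther for 13 (background 3.65%, 6.82% of those with signal) and below it for 14 (5.1% and 9.61%). At UNM the counts were 8 above (5.98% and 11.1%) and 16 below (6.74% and 11.9%). At BCP they were 13 above (7.3% and 13.6%) and 8 below (7.4% and 13.2%). At TCP they were 10 above (15.3% and 28.5%) and 8 below (7.96% and 14.3%), and 9 and 9 without the third stigma array. The shares at TCP were near or under those of probe sets with signal, and at TET they were further above them in both directions. At UNM the share below anther was 24.6%, against 11.9% of those with signal. At BCP the share above anther was 20%, against 13.6%. Some clusters entered these counts more than once. All the ovary transcripts of clusters Ta.7436, Ta.9382 and Ta.8141 were called below anther at TET, and all those of Ta.7436 and Ta.8141 at UNM. Those of Ta.14293 were all called above anther at TET. Probe sets of 1 cluster are not independent, so the shares count some signals repeatedly. Stigma and anther means also entered the rule, so these shares are a description. The median difference between stigma and anther was 0.10, -0.07, 0.11 and 0.04 at the 4 stages, against 0.05, 0.05, 0.05 and -0.13 over all probe sets. With hybridisation-control scaling the calls above and below were 19 and 10 at TET, 14 and 10 at UNM, 14 and 6 at BCP, and 17 and 5 at TCP.

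Transcripts that leaned to the stigma included Ta.4863.1.A1_at, Ta.29552.2.S1_at and Ta.6108.1.S1_at, the 3 called above anther at all 4 stages (background 1.03% of all probe sets, 1.98% of those with signal). At TET, Ta.4863.1.A1_at read 8.30, 8.29 and 8.38 in stigma against 4.10, 4.17 and 3.91 in anther, a difference of 4.27 ± 0.22 (SE; limma adjusted p = 5.39e-17). Ta.6108.1.S1_at read 9.90, 10.10 and 9.65 in stigma against 6.47, 6.14 and 6.18 in anther at TET, a difference of 3.62 ± 0.20 (SE), and differed by 3.30 ± 0.20 at TCP. At BCP, Ta.29552.2.S1_at read 10.15, 10.30 and 10.22 in stigma against 6.37, 6.40 and 6.14 in anther, a difference of 3.92 ± 0.17 (SE; limma adjusted p = 3.4e-20). No arrays overlapped between the organs in these comparisons. Ta.6908.1.S1_at (3.62 ± 0.19) and Ta.11582.1.S1_at (3.13 ± 0.19) were the furthest above anther at UNM, Ta.11582.1.S1_at also at BCP (4.55 ± 0.19). At TCP, Ta.6965.1.S1_at read 7.26, 7.38 and 7.88 in stigma against 4.66, 4.65 and 3.92 in anther, a difference of 3.10 ± 0.20, or 2.91 without the third stigma array, where Ta.6108.1.S1_at differed by 3.15.

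Transcripts that leaned to the anther included Ta.27776.1.S1_at (LOC780638) and Ta.5375.1.A1_at, the 2 called below anther in stigma at all 4 stages (background 0.719% of all probe sets, 1.39% of those with signal). Ta.27776.1.S1_at read 3.67, 3.81 and 3.87 in stigma at BCP against 6.82, 6.62 and 6.20 in anther, a difference of -2.76 ± 0.29 (SE; limma adjusted p = 1.12e-09). Ta.5375.1.A1_at read 4.68, 4.59 and 5.03 in stigma at TCP against 6.44, 7.31 and 6.84 in anther, a difference of -2.10 ± 0.21 (SE), or -2.23 without the third stigma array. At TET, Ta.7436.2.S1_at differed by -4.37 ± 0.33 and Ta.14034.1.A1_at by -4.20 ± 0.32. At UNM, Ta.14034.1.A1_at differed by -4.07 ± 0.32 and Ta.1345.3.S1_x_at by -3.47 ± 0.25. These are the ovary-bright transcripts that young anthers also held. At BCP, Ta.27766.1.S1_at (LOC100037571) read 5.46, 5.51 and 5.47 in stigma against 8.59, 9.37 and 7.55 in anther, a difference of -3.02 ± 0.33 (SE). Its ovary means were 9.92, 10.03, 10.98 and 11.12. Ta.6504.1.S1_at differed at TCP by -4.93 ± 0.30, with stigma arrays at 4.68, 4.28 and 5.63 and anther arrays at 9.11, 10.24 and 10.04, and by -5.32 without the third stigma array.

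The 2 transcripts called in opposite directions at different stages (background 3.19% of all probe sets, 6.11% of those with signal) were Ta.1345.3.S1_x_at and Ta.11188.1.A1_at. Ta.1345.3.S1_x_at averaged 9.30, 7.34, 7.46 and 5.64 in stigma and 11.01, 10.80, 4.48 and 4.09 in anther, so anther was second to the ovary at TET and UNM and stigma at BCP and TCP. No call between stigma and anther was made at any stage for 18 of the 65, and for 66.6% of all probe sets and 40.3% of those with signal.

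Mature pollen, which the rule did not use, gave a dim signal for most of these transcripts. Their median in mature pollen was 4.67, and 53 of the 65 were dim there (81.5%, against 68.2% of eligible probe sets). The highest mean in mature pollen was 7.83, of Ta.7436.1.A1_x_at. Mature pollen was called below anthers at TCP for 12 of the 65 (background 11.7%, 22.4% of those with signal) and above them for 3 (3.98% and 6.19%), shares no higher than those of probe sets with signal. The anther means at TCP did enter the rule, and 47 of the 65 (72.3%) were dim there. These shares are therefore a description. The median difference was 0.16, against 0.19 over all probe sets. The calls above numbered 7 with bright-probe scaling, 1 with hybridisation-control scaling and 5 without mature pollen replicate 2.

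The largest differences belonged to transcripts that anthers held at TCP. Ta.7436.2.S1_at read 5.09, 6.15 and 4.92 in mature pollen against 10.27, 11.04 and 11.14 in anthers at TCP, a difference of -5.43 ± 0.33 (SE; limma adjusted p = 6.02e-16). Ta.6504.1.S1_at read 5.01, 4.56 and 4.44 in mature pollen against 9.11, 10.24 and 10.04 in anthers, a difference of -5.13 ± 0.30 (SE; limma adjusted p = 1.35e-16). The anther signal of both was thus far above that of pollen. In the other direction, Ta.14034.1.A1_at read 7.76, 7.69 and 7.60 in mature pollen against 6.27, 6.40 and 5.79 in anthers, a difference of 1.53 ± 0.32 (SE). Ta.27569.1.S1_at (LOC780650) read 6.30, 6.23 and 5.89 in mature pollen against 5.17, 5.06 and 5.09 in anthers, a difference of 1.04 ± 0.16 (SE; limma adjusted p = 1.47e-06). It fell under the fold limit without mature pollen replicate 1 (0.96) or 2 (0.99).

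Other probe sets of the same clusters followed the ovary pattern in part. There were 30 such probe sets in 18 clusters that the rule had not kept. An excess above 0 at all 4 stages was seen for 19 of the 30 (63.3%), against 4.38% of eligible probe sets. They share sequence with probe sets that were chosen for this excess, on the same arrays. Nothing is therefore read from that share. They reached an excess of 1 at 3 stages for 5, at 2 for 8, at 1 for 5 and at none for 12. Ta.1345.1.S1_x_at and Ta.1345.2.S1_x_at, chosen after their values were seen, had excesses of 0.63 and 0.60 at TET, 1.47 and 1.21 at UNM, 4.8 and 4.68 at BCP, and 4.96 and 3.86 at TCP. That is close to Ta.1345.3.S1_x_at, whose excesses were 1.00, 1.62, 4.84 and 4.76. Of the 18 with an ovary mean of at least 6, 16 had an excess above 0 at all 4 stages. Ta.27766.2.S1_at (ovary mean 11.67) did not, with excesses of 3.44, -0.49, 0.14 and 3.02 at the 4 stages. Nor did Ta.7436.3.S1_at (11.05), with 0.43, -0.72, 1.37 and 0.89.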

How the data were processed

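The deposited table holds log2 values of 39 arrays. Per the submitters' processing notes, the authors normalised them by RMA, whose version is not given in the sources used here. Background correction and between-array scaling in RMA precede every value used, and RMA flattens a shift common to most probes. Of 61290 probe sets, 111 controls named AFFX and 19 with a gene symbol other than LOC were dropped, which left 61160; those without a symbol stayed. The rule was applied to group means of 3 arrays. Members and lists were chosen with earlier results of these data known. Named transcripts were those with a symbol, the 10 largest smallest excesses, the 5 brightest in ovary, up to 2 called per direction in each comparison whose arrays did not overlap, and those nearest the limit. The annotation holds symbols without descriptions, so lists of genes by function could not be applied.

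Tests used limma 3.58.1 in R 4.3.3: 1 mean per group over 39 arrays and 61204 probe sets (86 bacterial, spike and tag controls left out), empirical Bayes moderation (26 residual and 7.49 prior degrees of freedom) and Benjamini-Hochberg adjustment. The script was tested on simulated data. The number of arrays, 3 per group, limits the precision. The labels give biological replicates without saying whether they came from separate plants. Same-numbered samples deviated together (correlations 0.26, 0.10 and 0.13) only for stigma against anther at BCP. Alternatives were 2 scalings (each array shifted to a common median of the probe sets brighter than the median, or to a common mean of the hybridisation controls), a filter on dim probe sets, only the groups compared, a variance trend, the replicate number as a block, no fold limit and each array left out.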

Additional observations from a re-analysis of the deposited data

Results flagged for a closer look

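The change from UNM to BCP differed between stigma and anther, by an interaction contrast in limma, for 21 of the 65 ovary transcripts (15 higher and 6 lower in stigma relative to anther), where 10.9% of all probe sets were called. Probe sets with signal are called more often, and their share was not computed for this contrast. The 15 include all the ovary transcripts of clusters Ta.7436 and Ta.8141, and probe sets of a cluster are not independent. The stigma and anther means at UNM and BCP also entered the rule, so the count is a description. The stigma step minus the anther step was 6.45 for Ta.1345.3.S1_x_at, 4.66 for Ta.14034.1.A1_at, 1.83 for Ta.7436.2.S1_at and 1.81 for Ta.26268.1.A1_at. It was -1.46 for Ta.6504.1.S1_at and -1.93 for TaAffx.18711.1.S1_at. For Ta.1345.3.S1_x_at and Ta.14034.1.A1_at the stigma steps were 0.13 and -0.01 and the anther steps -6.32 and -4.68.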

How the results depend on the processing

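Of 269 settings of the counts, 235 stayed within 1.5 times the value given and 34 did not; of 494 settings of single named differences, 0 reversed and 8 lost the call (those of Ta.6908.1.S1_at, Ta.7436.2.S1_at and Ta.27569.1.S1_at, including hybridisation-control scaling at -0.74 and 0.72 for the first and last). The rule kept 23 transcripts at a limit of 1.5, 200 (the allowed maximum) at 0.5, 5 with LOC symbols only, 56 with bright-probe scaling, 62 with hybridisation-control scaling (50 of them among the 65), 65 to 73 with replicate 1, 2 or 3 left out of every group, and 64, all among the 65, without stigma TCP replicate 3, a setting chosen after seeing the data. With hybridisation-control scaling the higher and lower counts were 4 and 16 (ovary TET to UNM), 7 and 0 (ovary UNM to BCP), 3 and 7 (ovary BCP to TCP), 4 and 3 (stigma UNM to BCP), 14 and 10 (stigma against anther UNM) and 17 and 5 (TCP); 10 were lower in anther from UNM to BCP and 1 higher in mature pollen, which bright-probe scaling made 7. This scaling moved the median of all probe sets by 0.27 to 0.55 in size in the 10 comparisons. With no fold limit the counts were 22 and 17 (ovary TET to UNM), 5 lower (ovary UNM to BCP), 4 and 32 (ovary BCP to TCP), 4 and 12 (stigma UNM to BCP), 20 and 15 higher (stigma against anther TET and UNM) and 17 higher (mature pollen). Leaving out 1 array gave 0 to 2 lower (ovary UNM to BCP), 1 to 3 higher (stigma UNM to BCP) and 2 to 5 higher (mature pollen). The replicate block left every count as given (9 and 9 for ovary TET to UNM), also for stigma against anther at BCP (13 and 8), the only comparison whose numbers paired. The causes of these shifts were not tested. Signal near background limits the dim groups: a mean under 6 gives the size of an excess only roughly.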
